A study of Mus musculus with 16 samples.

Results

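The BCL2 family genes that set the threshold for mitochondrial cell death were examined in tumor-associated macrophages (TAMs) of mice with ovarian cancer. The 10 members were chosen by name, as the antiapoptotic genes Bcl2, Bcl2l1, Mcl1 and Bcl2a1b, the pore-forming effectors Bax and Bak1, and the BH3-only genes Bcl2l11, Bid, Bad and Bbc3, out of 55604 genes listed in the count data. All 10 passed the filter on low counts and were among the 16861 genes tested. The libraries came from Tim-4+ and Tim-4- TAMs in 4 pairs, numbered 793, 784, 783 and 779, with 1 library per subset and pair and 2 lanes per library, and values of 4 libraries are given in that order of pairs, Tim-4+ before Tim-4-. Both subsets came from the peritoneal cavity of female C57BL/6 mice, 6 to 8 weeks old at the start, that had been injected intraperitoneally with ID8, an ovarian cancer line of mouse epithelial origin. TAMs were taken 6 to 7 weeks after inoculation, and the labels name no other treatment and no gene deletion in either subset. Tim-4+ TAMs were separated with beads against Tim-4, and Tim-4- TAMs were then enriched from the remaining fraction with beads against F4/80. The 2 libraries of a number deviated together from their subset means, so the number was used as a block, but whether a number is 1 mouse or several pooled mice is not stated, and p-values measure only the spread between these pairs.

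Cells that die through the mitochondrial pathway do so when the effectors BAX and BAK form pores in the outer mitochondrial membrane and cytochrome c is released. Antiapoptotic proteins such as BCL-2, BCL-XL and MCL-1 hold the effectors and their activators in check, and BH3-only proteins such as BIM and PUMA relieve that restraint or activate the effectors directly. Much of this control acts on the proteins, through cleavage, phosphorylation and rapid turnover, which read counts do not measure. The A1 proteins are typical of hematopoietic cells.

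The Tim-4+ libraries held 53527928 to 57768202 counts on genes and the Tim-4- libraries 55618306 to 69594245, so that 3 counts corresponded to 0.0431 to 0.0560 CPM (counts scaled to library size, with TMM factors), a floor that covers counting error only. Timd4, which encodes Tim-4, was at 1161, 1744, 524 and 1166 CPM in the Tim-4+ libraries of pairs 793, 784, 783 and 779, compared with 85.0, 11.1, 22.3 and 1.97 CPM in Tim-4- TAMs. Macrophage markers (Adgre1, Cd68, Mertk, Mrc1, Lyz2, Itgam and Fcgr1) summed to 40507 to 53163 CPM in Tim-4+ and 18730 to 30644 CPM in Tim-4- TAMs. Most of the sum was Lyz2, at 33410 to 46930 and 16050 to 27080 CPM. Of the 7 markers, 5 were higher and 1 (Mrc1) was lower in Tim-4+ TAMs. Tumor epithelial and mesothelial markers, by contrast, summed to 108 to 396 CPM in Tim-4+ and 424 to 1961 CPM in Tim-4- TAMs, with 9 of 9 lower in Tim-4+ TAMs. Mast cell markers summed to 3.68 to 15.8 CPM in Tim-4+ and 19.9 to 65.1 CPM in Tim-4- TAMs, with 2 lower. Most of the sum was Kit in every library, and nearly all of it in pair 783. Kit was at 2.40, 7.14, 15.4 and 6.74 CPM in Tim-4+ and 13.2, 55.65, 19.7 and 32.6 CPM in Tim-4- TAMs. B cell and T and NK cell markers summed to 5.39 to 18.0 and 0.658 to 2.40 CPM over the 8 libraries, and Ncr1 was at or under 3 counts in every library. Dendritic cell markers summed to 13.3 to 29.4 and 10.3 to 17.4 CPM. Granulocyte markers summed to 253 to 370 and 87.1 to 191 CPM, nearly all of it Csf3r, whereas Ly6g did not exceed 0.100 CPM in any library. The part of these other cells in the results below was not tested, and in such bulk samples fewer cells of a type and less RNA per cell cannot be told apart.

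The subsets differed by less than 2-fold in each of the 10 members, and the clearest difference was a 1.35-fold higher level of Bak1 in Tim-4+ TAMs. In a paired edgeR quasi-likelihood fit at an adjusted p under 0.05, adjusted after Benjamini and Hochberg over the 16861 genes, 1 of the 10 was higher in Tim-4+ TAMs, namely Bak1, against 8.97% of all tested genes, and 0 of the 10 were lower, against 8.43%. Without adjustment 2 of the 10 had a p under 0.05 and were higher, Bak1 and Mcl1, against 16.8% of all tested genes, and 0 were lower, against 16.9%. DESeq2 with the same block called those 2 higher, against 13%, and 0 lower, against 13.8%. The 2 higher members are near the number these shares give for 10 genes. None of the 10 changed by 2-fold at the adjusted threshold, which 9.59% of all tested genes did. The 95% interval of the log2 fold change (limma-voom with the block) lay within 2-fold in either direction for 10 of 10 members and for 55.5% of tested genes. The members' median log2 fold change was 0.09, beside -0.00 for all tested genes, and their median size of change was 0.19 on the log2 scale, beside 0.33 for all tested genes and 0.23 for those that averaged 10 CPM or more. The estimates depend on the scaling. With total counts per library in place of TMM, the median of all tested genes moved to -0.36, Bcl2l1 (-0.25), Bcl2a1b (-0.19), Bax (-0.16) and Bad (-0.28) turned negative, and Bcl2 (-0.63) and Bcl2l11 (-0.58) were called lower in Tim-4+ TAMs.

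**Figure D1:**
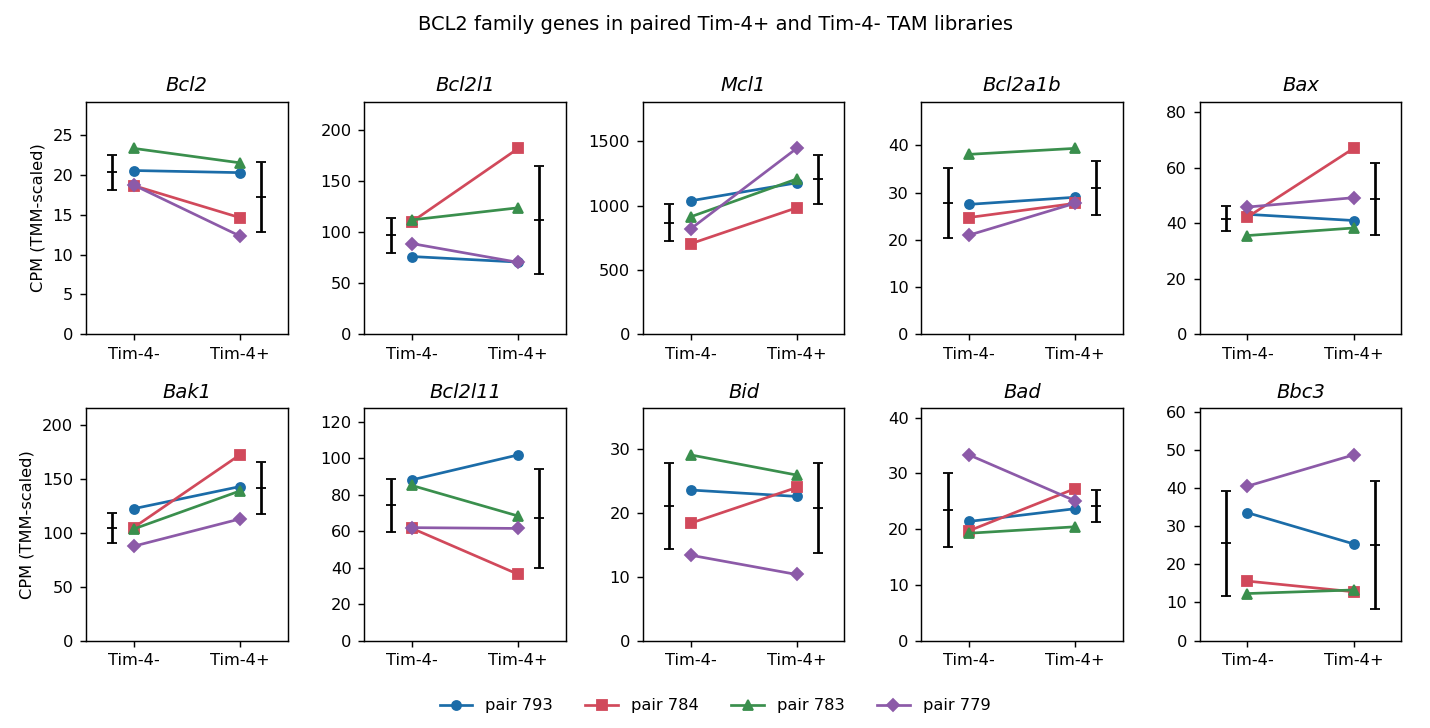
Levels of the 10 members in CPM (TMM-scaled, linear axes from 0) in Tim-4- and Tim-4+ TAMs, with a line for each of the 4 pairs and the mean ± SD of 4 libraries beside them. Mcl1, Bak1 and Bcl2a1b were higher at the Tim-4+ end of every line and Bcl2 was lower, while the ranges of the 2 subsets overlapped for all 10 members.

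The antiapoptotic members were led by Mcl1. Mcl1 (ENSMUSG00000038612, GRCm38 chr3:95658788-95663176, plus strand) encodes a short-lived guardian of the mitochondrial membrane. Its level was 1177, 983, 1207 and 1446 CPM in the Tim-4+ libraries of pairs 793, 784, 783 and 779, compared with 1037, 703, 913 and 818 CPM in Tim-4- TAMs. The Tim-4+ library was the higher of the 2 in every pair, by log2 ratios of 0.18, 0.48, 0.40 and 0.82, although the Tim-4+ value of pair 784 lay below the Tim-4- value of pair 793. The means were 1203 ± 190 and 868 ± 142 CPM (SD, n = 4), and the log2 fold change of 0.47 (standard error 0.15) had an adjusted p of 0.0717 in edgeR. Its interval ran from 0.15 to 0.79. The call differed by tool, since DESeq2 with the block gave 0.48 with an adjusted p of 0.00914, and scaling by total counts gave 0.11 (adjusted p = 0.447).

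Bcl2 (chr1:106538178-106714274, minus strand), the founding antiapoptotic gene of the family, was low and leaned the other way. It was at 20.3, 14.6, 21.5 and 12.3 CPM in Tim-4+ TAMs, compared with 20.6, 18.7, 23.4 and 18.7 CPM in Tim-4- TAMs. The Tim-4+ library was the lower in every pair, by as little as 0.02 on the log2 scale in pair 793 and as much as 0.59 in pair 779. The difference was a log2 fold change of -0.27 (standard error 0.14, interval -0.57 to 0.06) and did not pass the test (adjusted p = 0.213, edgeR).

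Bcl2l1 (chr2:152780668-152831728, minus strand), which encodes BCL-XL, had its highest and lowest values in the same subset. In Tim-4+ TAMs it was at 70.6, 181.9, 123.7 and 70.3 CPM, compared with 76.0, 110.1, 111.9 and 88.6 CPM in Tim-4- TAMs. Pairs 784 and 783 were higher in Tim-4+ TAMs and pairs 793 and 779 were lower. The difference was a log2 fold change of 0.11 (standard error 0.17, interval -0.29 to 0.49). The value rested on pair 784, without which it was -0.10.

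Bcl2a1b (chr9:89199209-89207827, plus strand) is a copy of the A1 gene, which mice carry in several nearly identical forms. It was at 29.0, 27.7, 39.4 and 27.7 CPM in Tim-4+ TAMs, compared with 27.5, 24.7, 38.1 and 21.0 CPM in Tim-4- TAMs, with the Tim-4+ library the higher in 4 of 4 pairs, by a log2 fold change of 0.17 (standard error 0.11, interval -0.09 to 0.42) that did not pass the test. The pairs differed as well, and pair 783 stood above the others in both subsets. Of the 50-base words in its transcripts, 79.2% also occur in another gene, and reads that aligned to several places were set aside, so its level and those of its copies are uncertain. Bcl2a1a was at 3.15, 8.18, 2.27 and 3.75 CPM in Tim-4+ TAMs versus 5.11, 13.3, 3.52 and 3.35 CPM in Tim-4- TAMs. Bcl2a1d was at 5.15, 14.2, 3.11 and 4.62 CPM and 6.51, 18.3, 4.04 and 5.22 CPM, and pair 784 was the highest of both copies in both subsets, whereas pair 783 was the highest for Bcl2a1b. Neither copy passed the test, with log2 fold changes of -0.47 (adjusted p = 0.180) and -0.31 (adjusted p = 0.208) in edgeR. Gm29094, an annotated gene on the same strand that shares 49.1% of the exon bases of Bcl2a1b, had 0 counts in every library. Ambiguous reads (3.42% to 4.3% of a lane) were also set aside, so reads over the shared bases may be credited to neither gene. The 0 counts therefore do not show that Gm29094 is silent, and the level of Bcl2a1b may lack these reads.

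The 3 A1 coding sequences are 516 bases long and differ at 12 positions in all, with identities of 97.9% between Bcl2a1a and Bcl2a1b, 98.6% between Bcl2a1a and Bcl2a1d and 98.8% between Bcl2a1b and Bcl2a1d. The first 60 coding bases, in coding exon 1, are shown because they hold 6 of the 12 positions by which reads could be assigned to a copy. They lie at chr9:88957051-88957110 (plus strand) for Bcl2a1a, chr9:89199360-89199419 (plus strand) for Bcl2a1b and chr9:88731660-88731719 (minus strand) for Bcl2a1d in GRCm38, are taken from the GENCODE M21 transcripts, and are written 5′ to 3′ with the positions that differ between copies in capitals.
Bcl2a1a: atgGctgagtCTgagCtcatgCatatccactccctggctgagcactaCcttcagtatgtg
Bcl2a1b: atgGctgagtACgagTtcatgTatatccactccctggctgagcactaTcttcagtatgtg
Bcl2a1d: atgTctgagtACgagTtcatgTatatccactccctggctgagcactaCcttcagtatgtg

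Bak1 was the member that passed the test. Bak1 (ENSMUSG00000057789, chr17:27019810-27029009, minus strand) encodes BAK, an effector that resides in the outer mitochondrial membrane. It was at 142.9, 172.4, 138.9 and 112.9 CPM in the Tim-4+ libraries of pairs 793, 784, 783 and 779, compared with 122.4, 104.9, 103.6 and 87.6 CPM in Tim-4- TAMs. The Tim-4+ library was higher in 4 of 4 pairs, by log2 ratios of 0.22, 0.72, 0.42 and 0.37, but the subsets overlapped, because the lowest Tim-4+ value (pair 779) lay below the highest Tim-4- value (pair 793). Its means were 141.8 ± 24.4 and 104.6 ± 14.2 CPM (SD, n = 4). The difference was a log2 fold change of 0.43 (standard error 0.11, interval 0.17 to 0.69), a 1.35-fold difference with an adjusted p of 0.0389 in edgeR. The call depended on all 4 pairs and on the block. Leaving out pair 793, 784, 783 or 779 gave adjusted p-values of 0.0681, 0.141, 0.0743 and 0.0955 and log2 fold changes of 0.34 to 0.51, the fit without the block gave 0.44 (adjusted p = 0.179), and scaling by total counts gave 0.07 (adjusted p = 0.598). The summed macrophage markers, mostly Lyz2, were also higher in the Tim-4+ library of 4 of 4 pairs, while Mrc1 alone was lower in 4 of 4. The part of these markers in the result for Bak1 was not tested. Of the exon bases of Bak1, 7.35% and 18.2% lie opposite annotated entries of Ggnbp1, which was at 2.48 to 7.26 CPM. Since the strand setting of the counting is not stated, the level of Bak1 is uncertain to that extent.

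The genes whose log2 CPM followed Bak1 most closely over the 8 libraries, among the 8770 that averaged 10 CPM or more, were Sh3bp1 (r = 0.990), Dab2ip (r = 0.986) and Med15 (r = 0.967). The 8 points share their libraries, pairs and scaling, so the r values only describe the likeness. Like Bak1, all 3 had their highest value in the Tim-4+ library of pair 784, and their log2 fold changes were 0.59, 1.10 and 0.53.

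Bax (chr7:45461697-45466898, minus strand) encodes the effector that moves from the cytosol to mitochondria. It was at 41.0, 67.0, 38.3 and 49.2 CPM in Tim-4+ TAMs, compared with 43.2, 42.2, 35.5 and 45.8 CPM in Tim-4- TAMs. The Tim-4+ library of pair 784 stood above the other 7, which lay within 35.5 to 49.2 CPM. The difference was a log2 fold change of 0.20 (standard error 0.14, interval -0.11 to 0.52), and without pair 784 it was 0.04. Gm45808, an annotated gene on the same strand, shares 12.2% of the exon bases of Bax, and reads over these bases may be credited to neither gene. The ratio of Bak1 to Bax per exon length was higher in Tim-4+ TAMs in 4 of 4 pairs. Its mean on the log2 scale was 0.95 ± 0.33 in Tim-4+ against 0.71 ± 0.28 in Tim-4- TAMs (SD, n = 4). Both SDs are between libraries and leave the pairing out, so they do not measure the spread of the difference within pairs. The ratio was not tested.

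**Figure D2:**
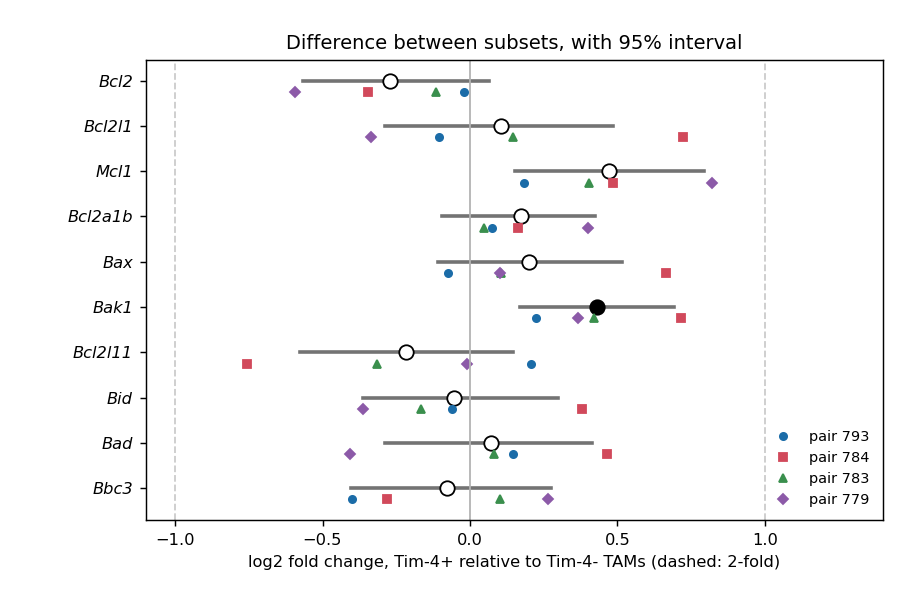
Log2 fold change of each member in Tim-4+ relative to Tim-4- TAMs, with the edgeR estimate as a large circle (filled where the adjusted p is under 0.05), the limma-voom 95% interval as a bar and the log2 ratio of each of the 4 pairs as small symbols below it. Bak1 is the filled member at 0.43, and no bar reaches the dashed lines at 2-fold.

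The 4 BH3-only members gave estimates between -0.22 and 0.07 on the log2 scale, and none passed the test. Bcl2l11 (chr2:128126038-128162547, plus strand) encodes BIM, an activator of both effectors. It was at 101.8, 36.3, 68.3 and 61.5 CPM in Tim-4+ TAMs, compared with 88.1, 61.5, 85.0 and 61.9 CPM in Tim-4- TAMs. The highest and the lowest of the 8 values were thus both in Tim-4+ TAMs, in pairs 793 and 784, and the log2 fold change of -0.22 (standard error 0.16, interval -0.58 to 0.15) moved to -0.04 without pair 784.

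Bbc3 (chr7:16308393-16318205, plus strand), which encodes PUMA, differed by pair rather than by subset. It was at 25.3, 12.8, 13.3 and 48.7 CPM in Tim-4+ TAMs, compared with 33.5, 15.6, 12.3 and 40.5 CPM in Tim-4- TAMs. In both subsets pair 779 was the highest and pair 793 the next, and the means of the 2 libraries of a pair spanned 1.77 on the log2 scale, while the subsets differed by -0.08 (standard error 0.14, interval -0.40 to 0.27), or 0.04 without pair 793.

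Bid (chr6:120891930-120916853, minus strand) encodes the protein that caspase-8 cleaves to link death receptors to mitochondria. It was at 22.6, 24.0, 25.9 and 10.4 CPM in Tim-4+ TAMs, compared with 23.6, 18.4, 29.1 and 13.4 CPM in Tim-4- TAMs, with pair 779 the lowest in both subsets. The difference was a log2 fold change of -0.05 (standard error 0.15, interval -0.36 to 0.30), or 0.05 without pair 779. Of its exon bases, 17.7% lie opposite Bcl2l13, at 29.2 to 60.6 CPM, and since the strand setting of the counting is not stated, its level is uncertain to that extent.

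Bad (chr19:6941861-6951899, plus strand) encodes a sensitizer that growth factor signals keep phosphorylated. It was at 23.7, 27.3, 20.4 and 25.1 CPM in Tim-4+ TAMs, compared with 21.4, 19.7, 19.3 and 33.3 CPM in Tim-4- TAMs. Higher values in Tim-4+ TAMs in 3 pairs stood against a lower one in pair 779, for a log2 fold change of 0.07 (standard error 0.15, interval -0.29 to 0.41), or -0.06 without pair 784. Of its exon bases, 20.5% lie opposite Gpr137, which was at 18.1 to 37.0 CPM.

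The range of the 4 pair means on the log2 scale exceeded the difference between subsets in 9 of 10 members, against 78.9% of all tested genes. Mcl1 was the exception, with a range of 0.41. A range over 4 means of few libraries each tends to exceed a difference between subset means by construction. This count therefore does not show that pairs differed more than subsets did. The range was widest for Bbc3 (1.77) and Bid (1.20). Across members its median was 0.61, beside 0.66 for all tested genes. All 4 pairs moved the same way for 4 of 10 members, against 42.6% of tested genes, and 3 of 10 had Tim-4+ TAMs higher in every pair, against 22.4%, so both counts were near those of all tested genes. The subsets did not overlap for 0 of 10 members, against 12.8% of tested genes, or 6.84% counting those with Tim-4+ TAMs higher. The Tim-4+ library of pair 784 held the highest Tim-4+ value of Bcl2l1, Bax, Bak1 and Bad and the lowest of Mcl1, Bcl2l11, Bbc3 and, by a small margin, Bcl2a1b.

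**Figure D3:**
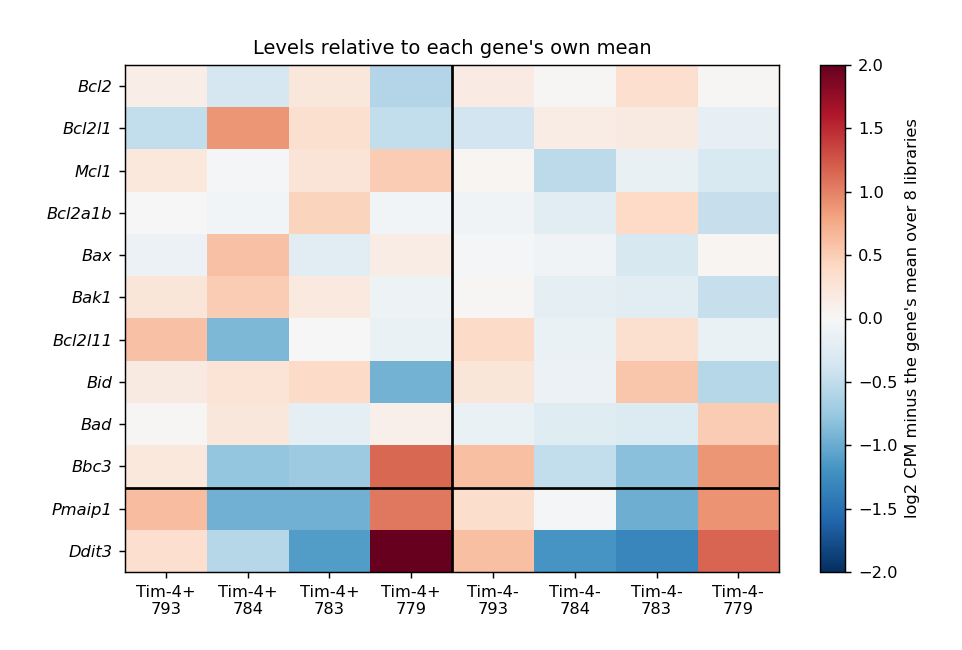
Log2 CPM of the 10 members, and below the line Pmaip1 and Ddit3, in each of the 8 libraries, minus the gene's mean over the 8, with red above and blue below the mean. The Bbc3 row is red in pairs 793 and 779 and blue in pairs 784 and 783 in both subsets, as is the Ddit3 row.

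Levels were compared between members per length, as RPKM (TMM-scaled CPM per kilobase of exon). Mcl1 had the highest level in both subsets, at 352 ± 55.5 RPKM in Tim-4+ and 254 ± 41.5 RPKM in Tim-4- TAMs (SD, n = 4). Bak1 followed at 58.9 ± 10.1 and 43.5 ± 5.91 RPKM, and then Bcl2a1b at 37.9 ± 6.90 and 34.0 ± 8.996 RPKM. Bax was at 31.0 ± 8.21 and 26.4 ± 2.77 RPKM and Bcl2l1 at 24.3 ± 11.6 and 21.1 ± 3.78 RPKM.

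The lower levels belonged to the BH3-only members and Bcl2. Bbc3 was at 11.8 ± 7.91 and 12.0 ± 6.43 RPKM, Bad at 9.42 ± 1.12 and 9.15 ± 2.61 RPKM, Bcl2l11 at 8.34 ± 3.36 and 9.23 ± 1.79 RPKM, and Bid at 5.84 ± 1.98 and 5.95 ± 1.90 RPKM. Bcl2 was the lowest, at 1.88 ± 0.482 and 2.22 ± 0.239 RPKM. The order was the same in both subsets except that Bad and Bcl2l11 changed places. Neighbours in this order overlapped in range, except that in both subsets every Mcl1 value lay above every Bak1 value and every Bid value above every Bcl2 value. With the longest transcript as the length, Bax and Bcl2l1 came before Bcl2a1b, and Bad came before Bbc3 in both subsets and Bcl2l11 before Bbc3 in Tim-4- TAMs, so the order of these members is not settled.

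**Figure D4:**
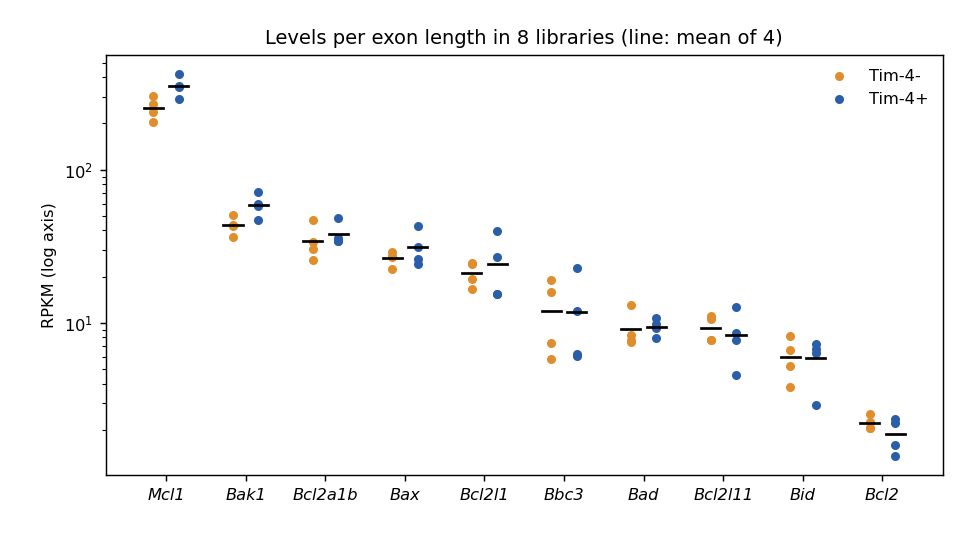
Levels of the 10 members in RPKM (log axis) in 4 Tim-4- and 4 Tim-4+ TAM libraries, a point per library and a line at the mean of 4, ordered by the mean in Tim-4+ TAMs. Mcl1 stands apart at the top (206 to 423 RPKM) and Bcl2 at the bottom (1.35 to 2.55 RPKM).

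Mcl1 made up most of the antiapoptotic members' summed RPKM, with 86.6%, 79.3%, 82.0% and 89.3% in Tim-4+ TAMs versus 85.3%, 78.5%, 78.4% and 83.6% in Tim-4- TAMs. Its share was higher in Tim-4+ TAMs in 4 of 4 pairs, at means of 84.3% ± 4.51 and 81.4% ± 3.51 (SD, n = 4). These SDs are between libraries and take no account of the pairs. With the longest transcript as the length its share was higher in 3 of 4 pairs, with 72.9% against 73.1% in pair 784. The log2 ratio of the antiapoptotic to the proapoptotic members' summed RPKM was 1.66, 1.35, 1.94 and 1.96 in Tim-4+ TAMs versus 1.57, 1.42, 1.80 and 1.39 in Tim-4- TAMs. It was higher in Tim-4+ TAMs in 3 of 4 pairs, at a mean of 1.73 ± 0.29 against 1.54 ± 0.19 (SD, n = 4). Without Mcl1 the ratio was below 0 in each of the 8 libraries, at means of -0.99 ± 0.34 and -0.90 ± 0.38. It was -1.24, -0.92, -0.53 and -1.26 in Tim-4+ TAMs versus -1.19, -0.80, -0.41 and -1.21 in Tim-4- TAMs. Unlike the ratio with Mcl1, it was higher in Tim-4+ TAMs in 0 of 4 pairs, with either length. The log2 ratio of Bcl2l1 to Bcl2l11, a guardian and an activator, was 0.28, 3.13, 1.67 and 1.001 in Tim-4+ TAMs versus 0.59, 1.65, 1.20 and 1.33 in Tim-4- TAMs, and the 2 extremes were again the Tim-4+ libraries of pairs 793 and 784. Bcl2a1b, whose level is uncertain because of its copies, enters the antiapoptotic sums, so the Mcl1 share and both ratios of antiapoptotic to proapoptotic members are uncertain to that extent. These ratios combine members chosen with the results known and were not tested.

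Among 47 other apoptosis genes, 44 could be tested, with a median log2 fold change of 0.00, and 3 of the 44 were higher and 5 lower in Tim-4+ TAMs in the same paired edgeR fit, close to the 8.97% and 8.43% of all tested genes. The largest differences were in family members outside the 10. Bok, which encodes an effector related to BAX and BAK, was at 1.60, 4.84, 6.25 and 3.99 CPM in Tim-4+ TAMs versus 7.75, 30.7, 9.99 and 33.3 CPM in Tim-4- TAMs, without overlap. It fell by 2.19 ± 0.40 (standard error) on the log2 scale, with an adjusted p of 0.0185. Bmf, a BH3-only gene, was at 4.24, 2.56, 13.5 and 8.28 CPM and 11.1, 15.5, 20.1 and 26.7 CPM, and fell in 4 of 4 pairs, by 1.55 ± 0.31 (standard error) on the log2 scale (adjusted p = 0.0215). The summed epithelial and mesothelial markers were at 108, 196, 396 and 223 CPM in Tim-4+ TAMs versus 424, 1283, 885 and 1961 CPM in Tim-4- TAMs in the same order, with pairs 784 and 779 highest in Tim-4- TAMs as for Bok, and their part in the levels of Bok and Bmf was not tested.

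The other genes of the family moved less. Bcl2l13, which encodes a BCL2-like protein of mitochondria, was at 36.5, 38.8, 29.2 and 33.5 CPM in Tim-4+ TAMs versus 39.4, 60.6, 39.7 and 45.1 CPM in Tim-4- TAMs, with a log2 fold change of -0.41 at the edge of the threshold (adjusted p = 0.04996). Bcl2l2, which encodes the antiapoptotic BCL-W, was at 13.8, 20.3, 25.0 and 21.1 CPM and 17.5, 31.8, 27.9 and 32.5 CPM, and missed it with a log2 fold change of -0.44 (adjusted p = 0.0514). Pmaip1, which encodes NOXA, a BH3-only protein that targets MCL-1, was at 60.4, 20.2, 20.3 and 81.7 CPM and 50.2, 38.6, 19.9 and 73.1 CPM, with a log2 fold change of -0.11 (adjusted p = 0.741). Like Bbc3, it was highest in pairs 779 and 793 in both subsets. Of the other antiapoptotic genes 0 of 3 tested were called by edgeR, 1 (Bcl2l2) had an unadjusted p under 0.05 and DESeq2 called it lower, of the other BH3-only genes 1 of 3 was lower (Bmf), and of the BCL2-like and BNIP genes 1 of 5 was lower (Bcl2l13).

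The 3 genes that were higher belonged to the lists of p53 and stress regulators (2) and of the death receptor pathway (1). Cdkn1a, which encodes the cell cycle inhibitor p21, was at 441, 437, 295 and 508 CPM in Tim-4+ TAMs versus 303, 218, 156 and 197 CPM in Tim-4- TAMs, a rise of 0.96 ± 0.15 (standard error) on the log2 scale (adjusted p = 0.00964). Mdm2, which encodes the ligase for p53, was at 158, 182, 126 and 179 CPM and 146, 136, 89.4 and 97.9 CPM, higher in all 4 pairs with a log2 fold change of 0.48 (adjusted p = 0.0488). The other 3 of 5 p53 and stress regulators did not pass the test. Cdkn1a, Mdm2, Fas, Tnfrsf10b, Pmaip1, Bax and Bbc3 are all known targets of p53. Of these, edgeR called Cdkn1a, Mdm2 and Fas higher and Tnfrsf10b lower, and it did not call Pmaip1, Bax or Bbc3. In the same fit 8.97% of all tested genes were called higher and 8.43% lower. This group was drawn from several lists with the calls known and is not a full list of p53 targets, so its calls are not a result about p53. A part of p53 in the levels of these genes was not tested. Fas, a death receptor gene, was at 18.7, 41.8, 12.4 and 15.3 CPM and 11.4, 28.4, 11.5 and 7.88 CPM, a rise of 0.58 ± 0.16 (standard error) on the log2 scale (adjusted p = 0.0417). Tnfrsf10b, the mouse receptor for TRAIL, was low, at 0.567, 1.22, 1.35 and 1.31 CPM and 1.15, 4.88, 1.73 and 5.25 CPM, and fell by 1.36 ± 0.36 (standard error) on the log2 scale (adjusted p = 0.0391), with the epithelial and mesothelial markers again highest in the 2 Tim-4- libraries where it was highest.

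Among the caspases and the genes that act with or after mitochondrial release, 1 was called. Casp2, which encodes an initiator caspase, was at 27.5, 16.4, 29.4 and 29.3 CPM in Tim-4+ TAMs versus 34.6, 25.3, 34.0 and 43.1 CPM in Tim-4- TAMs, lower in 4 of 4 pairs with a log2 fold change of -0.43 (adjusted p = 0.0423, edgeR), while the other 5 of 6 caspases tested did not pass. Casp6, an executioner caspase named after its values were seen, was also lower in 4 of 4 pairs, with a log2 fold change of -0.51 and an adjusted p of 0.0564, and DESeq2 called 2 of the 6 caspases lower. In edgeR 0 of 6 genes of the apoptosome and mitochondrial release (log2 fold changes of -0.24 to 0.45) and 0 of 5 inhibitors of apoptosis (-0.48 to 0.44) were called, and none of these had an unadjusted p under 0.05 or was called by DESeq2. Of the 3 VDAC channel genes (-0.39 to 0.17), 0 were called, 2 had an unadjusted p under 0.05, both lower, and DESeq2 called 0. Of the 8 calls in these other apoptosis genes, Cdkn1a held with any pair left out except 784 (adjusted p = 0.0684), whereas Bok, Bmf, Fas, Casp2 and Tnfrsf10b were each lost without pair 793, 784 or 779 (adjusted p = 0.0693 to 0.180), and Mdm2 and Bcl2l13 without any of the 4 (adjusted p = 0.0568 to 0.175). Without the block all 8 were lost (adjusted p = 0.0652 to 0.555). Bok was also lost with no filter on counts (adjusted p = 0.102), Mdm2, Bcl2l13 and Tnfrsf10b with lane 2 alone (0.0574, 0.0565 and 0.0613), Mdm2 also with a minimum of 50 counts (0.0515), and Mdm2 and Bcl2l13 without the lane listed by symbol (0.0507 and 0.0739). With scaling by total counts the log2 fold changes of Mdm2 and Fas were 0.12 (adjusted p = 0.437) and 0.23 (adjusted p = 0.277).

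**Figure D5:**
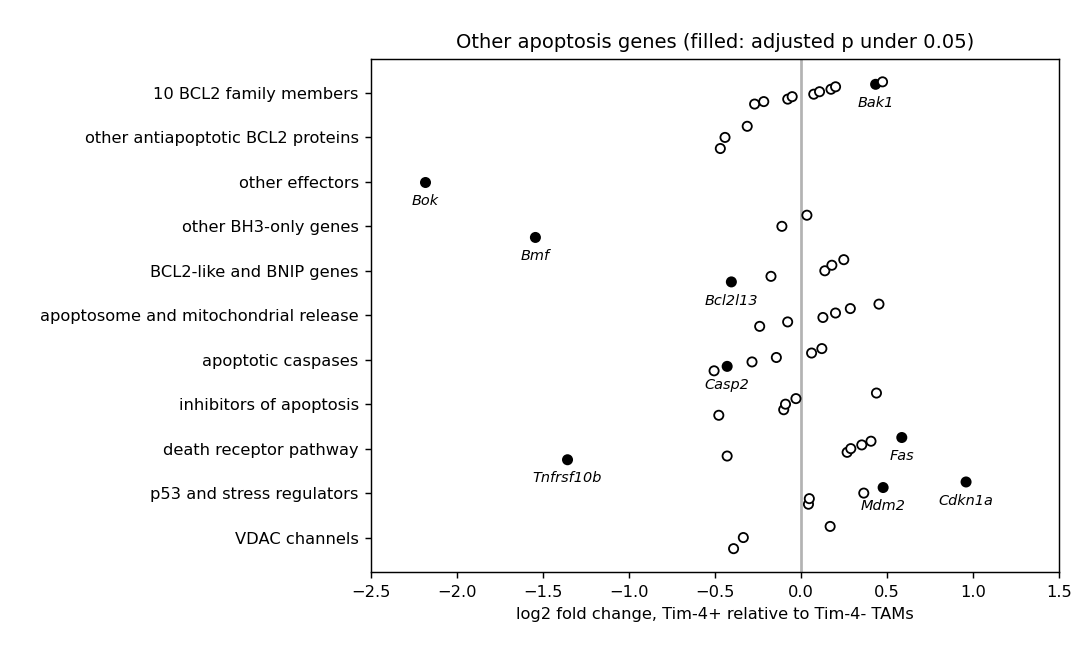
Log2 fold change in Tim-4+ relative to Tim-4- TAMs of the 10 members (top row) and of 44 other apoptosis genes in 10 groups, a circle per gene, filled and named where the adjusted p is under 0.05. The 10 members lie between -0.27 and 0.47, while Bok at -2.19, Bmf at -1.55 and Tnfrsf10b at -1.36 lie farthest from 0.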

How the data were processed

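RNA was depleted of ribosomal RNA, and stranded libraries were sequenced with paired ends. The authors deposited raw counts per gene and lane, without normalization. The submitters' processing notes name FastQC 0.11.3, TopHat2 2.0.13, Cufflinks, Cuffdiff 2.2.1 and GRCm38/mm10, whereas the methods name hg19. The read counter and its strand setting are not given in the sources used here, and reads with several alignments (9.11% to 24.5% of a lane) were set aside. Both ends of that range are lanes of the Tim-4- library of pair 779, with 24.5% in lane 1 and 9.11% in lane 2. The other lanes with such values lay at 20.3% to 23.8%. Reads listed as ambiguous (3.42% to 4.3% of a lane) were set aside too, and the 4.3% belongs to the same lane 2. The reason for the difference of this lane was not tested. Lane 1 of the Tim-4- library of pair 793 is listed by symbol and was joined by order (96.8% of 53704 symbols matched). Its Timd4 line stood first and was moved to the place of the Timd4 identifier before the join. The Timd4 level of that library rests in part on this line. Other lanes were matched by identifier to GENCODE M21 (98.6%).

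Lanes were summed. Genes reaching 10 counts in 4 or more of the 8 libraries were tested with edgeR 4.0.16 (R 4.3.3, robust quasi-likelihood, TMM, pair block, Benjamini-Hochberg adjustment), which was tested on simulated data. A standard error is the log2 fold change divided by the square root of F. Intervals are from limma 3.58.1. The pair numbers come from the labels, and libraries of a pair deviated together (r = 0.277 to 0.498 across genes, no other r above 0.0658). Alternatives were no block, DESeq2 1.42.0, DESeq2 size factors, total counts, other filters, lane 2 only, the longest transcript and each pair left out. Leaving out the symbol-listed lane was added after the data were seen. Members and lists were chosen with earlier results of these data known. Named genes are the 10 members, Timd4, called genes of the other lists, Bcl2a1a, Bcl2a1d, Bcl2l2, Bmf and Pmaip1, and the 3 genes most like a called member.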

Additional observations from a re-analysis of the deposited data

Results flagged for a closer look

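In 4 of the 46 groups of 4 libraries examined, 1 library stood apart from the other 3 beyond Dixon's 95% limit on the gap relative to the range, where chance alone gives about 1 in 20. Bcl2a1b was at 39.4 CPM in the Tim-4+ library of pair 783 and at 27.7 to 29.0 CPM in the others. Bad was at 33.3 CPM in the Tim-4- library of pair 779 and at 19.3 to 21.4 CPM in the others. Casp2 was at 16.4 CPM in the Tim-4+ library of pair 784 against 27.5 to 29.4 CPM, and Tnfrsf10b at 0.567 CPM in the Tim-4+ library of pair 793 against 1.22 to 1.35 CPM.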

How the results depend on the processing

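Of the 120 alternative values of the 10 members, 103 kept their direction and their side of the threshold, 6 lost a call, all of Bak1, 3 gained one and 8 changed sign. Without the replicate block 147 genes were higher and 85 lower, in place of 1512 and 1421, 0 members and 0 other apoptosis genes were called, and Bak1 was at 0.44 and Pmaip1 at 0.0070. With total counts per library 789 were higher and 4906 lower, 0 members were higher and 2 lower (Bcl2 at -0.63 and Bcl2l11 at -0.58), 1 other apoptosis gene was higher and 18 lower, Bak1 was at 0.074, and Bcl2l1 (-0.25), Bcl2a1b (-0.19), Bax (-0.16) and Bad (-0.28) changed sign. DESeq2 with the block gave 2194 higher and 2328 lower genes, 2 members higher (Bak1, and Mcl1 at 0.48) and 8 other apoptosis genes lower, and lane 2 alone gave 3 lower. With a pair left out, 91 to 1608 genes were higher and 67 to 1975 lower, 0 to 0 members were called in either direction, and 0 to 2 other apoptosis genes were higher and 0 to 5 lower. Bak1 ranged from 0.34 to 0.51. The sign changed for Bcl2l1 (-0.10 to 0.25) and Bad (-0.061 to 0.23) without pair 784, Bid (-0.20 to 0.051) without pair 779, Bbc3 (-0.20 to 0.037) without pair 793 and Pmaip1 (-0.24 to 0.15) without pair 784. With the longest transcript the Mcl1 share in Tim-4- TAMs was 77.1% and the log2 ratio of antiapoptotic to proapoptotic members 1.28. Leaving out a pair or a lane gives fewer libraries or reads by construction. Without pair 783, however, more genes were called than in the main fit, with 1608 higher and 1975 lower, and without pair 784 far fewer, with 91 and 67. The causes of these changes were not tested. The 144 alternatives of other named genes gave 94 values on the same side, 41 lost calls, 7 gained calls and 2 changes of sign. Each member had at least 498 counts in each library.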

Other observations

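Ddit3, a transcription factor gene of the stress response that was singled out after its values were seen, was at 36.4, 19.4, 13.3 and 122.6 CPM in Tim-4+ TAMs of pairs 793, 784, 783 and 779 and at 43.7, 12.7, 11.7 and 64.7 CPM in Tim-4- TAMs. Pair 779 was the highest and pair 793 the next in both subsets, which was also the order of the upper 2 pairs for Bbc3 and Pmaip1. Its log2 fold change between subsets was 0.36 (adjusted p = 0.232, edgeR).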
